A study of Mus musculus with 10 samples.

Results

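Primary murine keratinocytes that had been kept together with pre-activated CD8+ T cells were compared with keratinocytes cultured alone. The titles of the samples define the 2 groups, which hold 2 libraries each, 4 of the 10 libraries of the series, with the replicate numbers 1 and 2 in both. All keratinocytes came from tails of adult mice, by the paper of the C57/B6 strain, and were cultured in serum-free keratinocyte medium (SFM) with 0.06 mM Ca++. The co-cultured group received splenic T cells that had been purified with CD8 microbeads and stimulated by αCD3/CD28 Abs for 1 d in X-vivo medium, and these were washed off before the keratinocytes were collected. The deposited design text gives 1 h for the co-culture, whereas the paper and the labels of the T cells give 1 d. In co-culture the medium became a 4:1 mix of both media by the paper. The medium of the keratinocytes alone is not spelled out for these libraries, and the addition of T cells and the change of medium cannot be told apart. No source says whether the libraries came from separate animals, so the p-values below measure only the spread between these libraries, which may be technical.

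Keratinocytes of the basal layer divide, detach from the basement membrane and then exchange their keratins, build desmosomes and assemble a cornified envelope of cross-linked proteins, which keratinocytes in low Ca++ do only in part. Interferons bind to receptors that signal through Jak kinases to STAT factors and interferon regulatory factors (IRFs). These switch on GTPases and antiviral effectors, the loading of peptides on MHC class I molecules, and chemokines that attract T cells. Activated CD8+ T cells are a source of interferon-γ, to which keratinocytes respond.

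The authors counted 14510546 to 18019609 reads on exons in the 4 libraries. RPKM values, the reads of a gene divided by its exon length and by the mapped reads of the library, are given for replicate 1 and then for replicate 2. For a gene with 1 kb of exons, 3 reads equalled 0.158 to 0.197 RPKM in these libraries, a floor for counting error only. The marker of basal keratinocytes, Krt14, was present in all 4 libraries, at 7239.8 and 8719 RPKM alone against 7926 and 11836 RPKM in co-culture, and Krt6a, a keratin of cultured and wounded epidermis, at 6418 and 4678 RPKM alone against 6239 and 5237 RPKM in co-culture. The 24 T-cell markers summed to 175.6 and 683 RPKM in keratinocytes alone and to 223 and 1210.2 RPKM in co-culture. The most abundant was Cd3g, a chain of the T-cell receptor complex, at 34.8 and 126 RPKM alone against 44.2 and 247 RPKM in co-culture, while the co-receptor Cd8a was at 0.118 and 0.60002 RPKM alone against 0.525 and 1.16 RPKM in co-culture. Markers of T cells were thus present also in the keratinocytes alone and were higher in both libraries of replicate 2, and none of the 21 members tested had an unadjusted p under 0.05. The 14 markers of myeloid and Langerhans cells summed to 59.1 and 102 RPKM alone and to 51.8 and 129.6 RPKM in co-culture, with Cd207, which defines Langerhans cells, at 0 in the 4 libraries. B-cell, melanocyte, and endothelial markers summed to at most 3.86, 22.2, and 3.14 RPKM in any library. Of the 9 B-cell markers only 2 were tested, and genes with a deposited exon length of 0 add nothing to such sums. The sum is therefore no measure of B cells, and reads on introns of these genes are given below. The part of all these cell types in the results was not tested. In such bulk libraries, fewer cells of a type and less RNA per cell cannot be told apart.

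Levels also varied with the length of the genes. In the shortest eighth of the genes tested (201 to 1514 bases of exons) the median log2 fold change was 0.37, and in the longest eighth (6732 to 123179 bases) it was -0.68. The trend was steepest in replicate 2 of the co-culture, whose median deviation went from 0.28 in the shortest to -0.58 in the longest eighth. Replicate 1 of the keratinocytes alone went the other way, from -0.26 to 0.44. For this reason, a second edgeR fit, in which the replicate numbers form blocks and the length trend of each library is taken out by an offset, is given beside the plain one. It was chosen with earlier results of these data known. With the block, the 4 libraries leave very little from which to estimate the spread. The offset is drawn from the same libraries, and its own error is not counted. Adjusted p-values of this second fit are therefore less firm than their size implies.

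**Figure D1:**
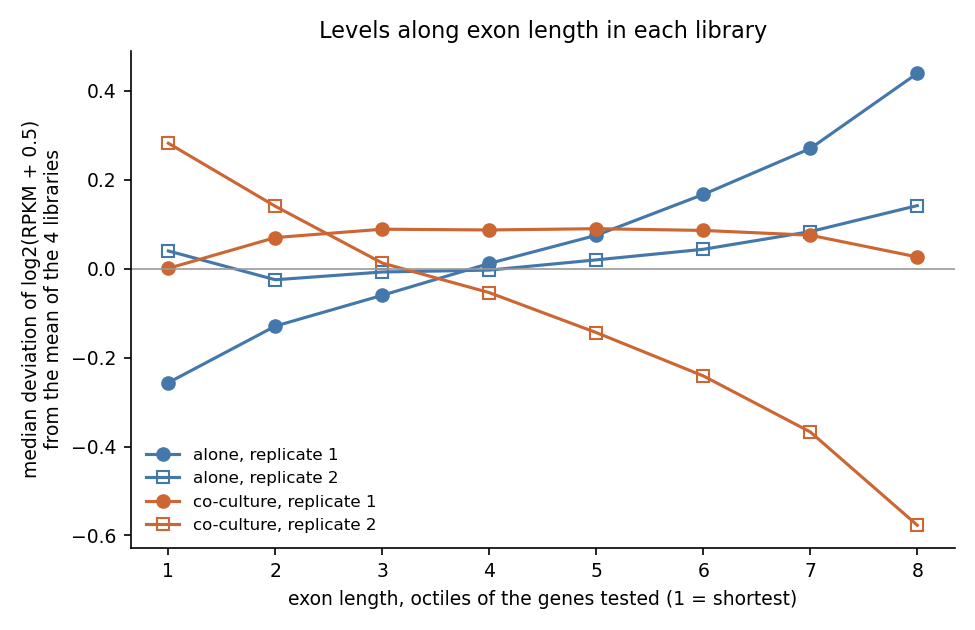
Median deviation of log2(RPKM + 0.5) from the mean of the 4 keratinocyte libraries (vertical axis) in octiles of exon length from the shortest to the longest genes tested (horizontal axis), 1 line for each library. Replicate 2 of the co-culture runs from 0.28 down to -0.58 and replicate 1 of the keratinocytes alone from -0.26 up to 0.44, while the other 2 libraries stay closer to 0.

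A filter on low counts left 12515 genes for edgeR's quasi-likelihood test, in which 0 were higher and 0 were lower upon co-culture when the adjusted p had to be under 0.05 (0.0% in both directions, smallest adjusted p = 0.434). At an unadjusted p under 0.05, 386 genes (3.08%) were higher and 515 (4.12%) lower. DESeq2 gave 85 and 92 genes at an adjusted p under 0.05. With the replicate number as a block, edgeR called 2 genes higher (0.016%), Cxcl9 and AA467197, and 0 lower (0.0%), and with the block and the length trend removed 204 genes higher (1.63%) and 311 lower (2.49%). Leaving replicate 1 of the co-culture out of the plain fit gave 107 genes higher and 1057 lower, and leaving out its replicate 2 gave 21 higher and 0 lower. Without any test, the co-culture lay above the keratinocytes alone with no overlap of the libraries in 2472 genes (19.8%) and below them in 3042 genes (24.3%). Counts for the gene lists are to be read against these percentages. The median log2 fold change of all genes tested was 0.02.

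**Figure D2:**
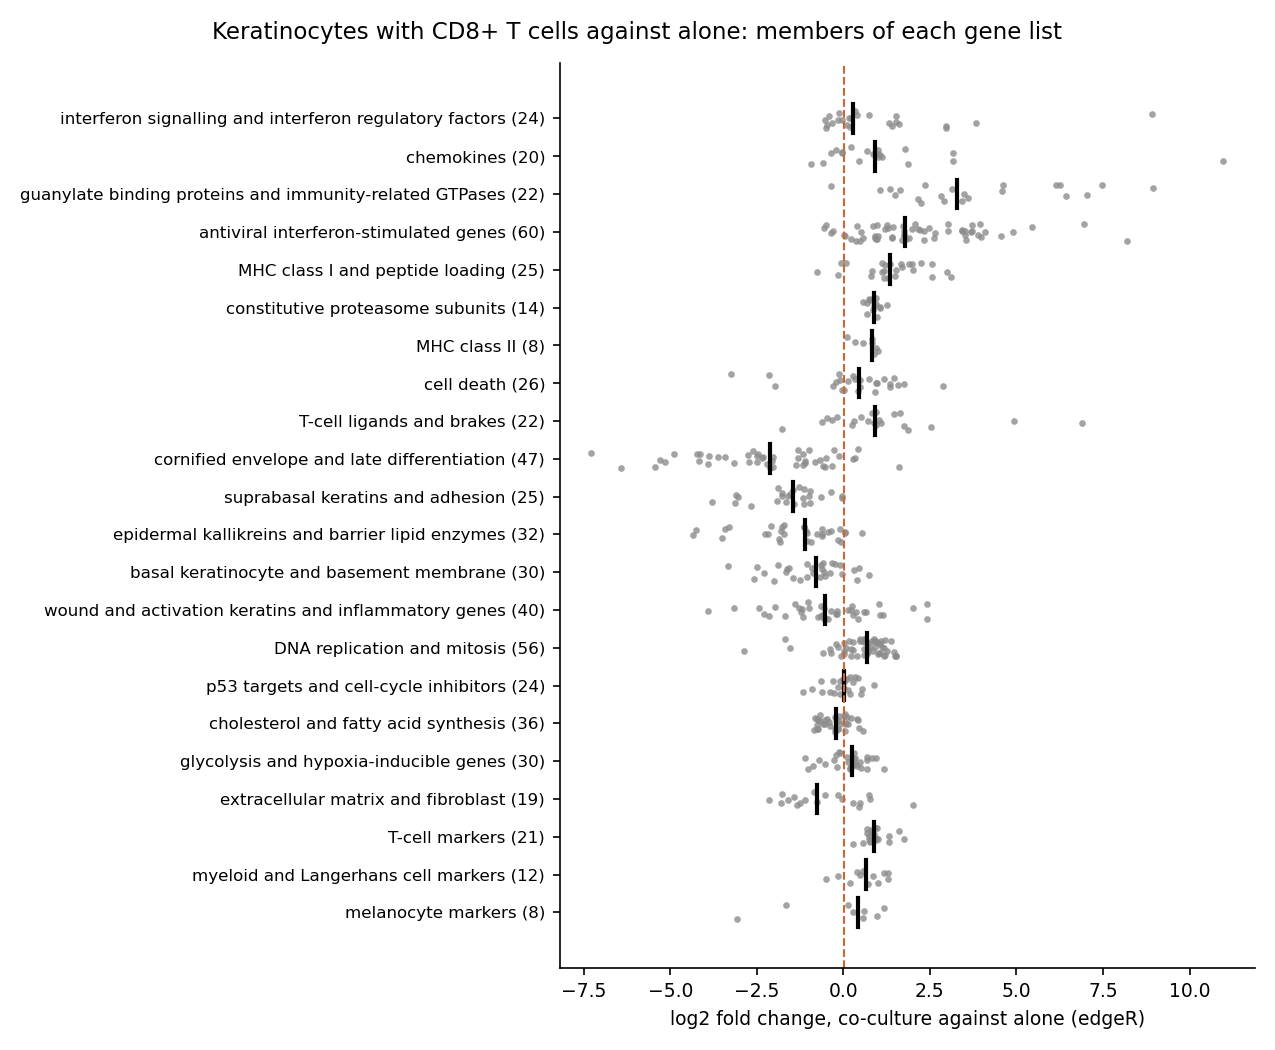
Log2 fold change of co-culture against alone from edgeR (horizontal axis) for the tested members of each gene list with 8 or more of them (vertical axis, number of members in parentheses). Each point is a gene, black bars are medians of a list and the dashed line is the median of all genes, 0.02. Lists of the interferon response lie to the right, up to a median of 3.29, and lists of epidermal differentiation to the left, down to -2.12.

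Genes known as targets of interferon led the positive fold changes. By the rule for named genes, the 15 largest were those of Cxcl9, Oasl2, Serping1, Gm4841, Gbp2, Sectm1b, Ubd, Gbp3, AA467197, Tgtp1, Phf11d, Il18bp, Apol9b, Iigp1, and Irgm1. Serping1, the inhibitor of the first component of complement, was covered by 0 and 4 exon reads alone against 853 and 223 exon reads in co-culture. Oasl2, a relative of the 2′-5′ oligoadenylate synthetases, was at 0.0327 and 0.0729 RPKM alone against 24.5 and 6.92 RPKM in co-culture. Ubd, the ubiquitin-like modifier FAT10, was at 0.226 and 0.631 RPKM alone against 39.9 and 25.2 RPKM in co-culture, a log2 fold change of 6.29 (SE 0.67). AA467197 was among the most abundant of them, at 3.42 and 1.12 RPKM alone against 235 and 88.2 RPKM in co-culture. The groups did not overlap for any of these 15 genes, as the rule required, and for each of them both co-cultured libraries were the higher ones. Serping1, Cxcl9 and Oasl2 had at most 4 reads per library in keratinocytes alone, so the size of their fold changes depends on the prior count of the fit. Log2 fold changes of Gm4841 and Sectm1b also changed strongly with the fit. They were 7.49 and 6.41 in edgeR against 2.53 and 2.33 in limma with 1 added to RPKM. Tgtp1 has a near-identical copy, Tgtp2, and 0% of its reads were unique, so its level is uncertain.

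Several transcription factors at the end of the interferon pathway were higher in co-culture, whereas no receptor or kinase of the list had an unadjusted p under 0.05. Ifngr1, the ligand-binding chain of the interferon-γ receptor, was at 24.9 and 41.5 RPKM alone against 23.99 and 55.3 RPKM in co-culture, with a log2 fold change of 0.35 (SE 0.56). Irf1 (ENSMUSG00000018899, chr11:53770014-53778374 in GRCm38), a factor that interferon-γ induces early, was at 3.19 and 5.72 RPKM alone against 58.3 and 62.3 RPKM in co-culture. Irf7, which amplifies the response to type I interferon, was at 1.98 and 2.14 RPKM alone against 13.9 and 16.7 RPKM in co-culture, and Irf9, the DNA-binding part of the ISGF3 complex, at 6.998 and 9.68 RPKM alone against 22.9 and 25.1 RPKM in co-culture. For the 3 factors the replicates of a group lay close together and apart from the other group, with log2 fold changes of 3.83 (SE 0.45), 2.97 (SE 0.36), and 1.59 (SE 0.34). Their adjusted p was 0.00015, 0.001202, and 0.0119 in edgeR with the block and the length trend removed. Batf2, an AP-1 like factor that interferons induce, had 0 reads in both libraries of keratinocytes alone and 76 and 35 reads in co-culture. Its mean RPKM in co-culture was 21.3-fold the mean that 3 reads per library would give in keratinocytes alone. Irf8 was at 0.598 and 2.75 RPKM alone against 3.24 and 5.91 RPKM in co-culture, where the groups did not overlap but the libraries of a group differed, and its log2 fold change was 1.52 (SE 0.85). Of 24 members tested in this list, 6 were higher and 0 lower at an unadjusted p under 0.05, 10 were above and 5 below without overlap (Ifnar1, Jak1, Jak2, Tyk2, and Stat3), and 8 were higher with the block and the length trend removed. The median log2 fold change was 0.28.

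Guanylate binding proteins and immunity-related GTPases, which attack the membranes of vacuoles that hold intracellular pathogens, were the list with the highest median (3.29, 22 members tested). At an unadjusted p under 0.05, 15 members were higher and 0 lower, 18 lay above without overlap and 0 below, and 15 were higher at an adjusted p under 0.05 with the block and the length trend removed. Gbp2 (ENSMUSG00000028270, chr3:142620602-142638008 in GRCm38) was at 2.74 and 6.47 RPKM alone against 579 and 203 RPKM in co-culture. Gbp3 was at 0.708 and 1.98 RPKM alone against 147 and 55.1 RPKM in co-culture, and Gbp7 at 0.629 and 0.8996 RPKM alone against 12.01 and 6.05 RPKM in co-culture. For these 3 genes replicate 1 of the co-culture was well above replicate 2, and both were far above the keratinocytes alone. Irgm1, a regulator of the immunity-related GTPases, was at 3.47 and 9.91 RPKM alone against 193 and 119 RPKM in co-culture, a log2 fold change of 4.58 (SE 0.68). Igtp was at 6.93 and 22.2 RPKM alone against 169 and 135 RPKM in co-culture, but 5.98% of its reads were unique, and Gm4070, a large GTPase with 4.09% unique reads, at 0.0234 and 0.0391 RPKM alone against 5.46 and 2.62 RPKM in co-culture. Values of both genes are therefore uncertain.

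Most promoters found for this list held the same short motif. Promoters from RefSeq (GRCm38.p6, 250 bases before to 50 bases after a start) were found for 13 of its 24 genes, 14 promoters in all. The interferon-stimulated response element, searched as GAAANNGAAA on both strands with overlaps counted, was in 11 of 14 promoters (78.6%), against 3.44% of all 32851 promoters of the table. The gamma-activated site, searched as TTCNNNGAA, which reads the same on both strands, was in 7 of 14 (50%), against 8.3%. Tgtp1, Tgtp2, Igtp, Irgm2, and Gm12185, all on chromosome 11, held it with the same spacing, 2 bases before a response element. Near-identical copies such as Tgtp1 and Tgtp2 count as separate promoters in these shares. Response elements were found in 30 of 58 promoters of the antiviral list (51.7%), in 5 of 23 of the MHC class I list (21.7%), and in 3 of 26 of the chemokines (11.5%). In the cornified envelope list it was 1 of 58 (1.72%), in the list of suprabasal keratins and adhesion 0 of 19, and in that of kallikreins and barrier lipids 1 of 33 (3.03%). Shares near that of the chemokines were found for interferon signalling (3 of 22, 13.6%), but also for B-cell markers (1 of 8, 12.5%) and MHC class II (1 of 10, 10%). Gamma-activated sites were in 7 of 22 promoters of the interferon signalling list (31.8%), in 8 of 58 of the antiviral list (13.8%), in 2 of 23 of the MHC class I list (8.7%), in 2 of 26 of the chemokines (7.69%), and in 5 of 58 of the cornified envelope list (8.62%). The list of hair follicle markers held them in 2 of 10 (20%). The following stretches lie at the starts of genes described here and show how the letters are placed. They are printed 5′ to 3′ on the strand of the gene, and capitals mark the matches, for Igtp and Tgtp1 first a gamma-activated site and 2 bases later a response element.
Gbp2 (chr3:142620574-142620643, + strand): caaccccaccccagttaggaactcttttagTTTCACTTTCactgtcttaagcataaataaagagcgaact
Gbp3 (chr3:142559969-142560043, + strand): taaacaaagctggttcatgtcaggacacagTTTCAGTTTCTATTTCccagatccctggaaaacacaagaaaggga
Irgm1 (chr11:48871421-48871480, - strand): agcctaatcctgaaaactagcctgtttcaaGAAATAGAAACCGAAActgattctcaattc
Igtp (chr11:58199481-58199555, + strand): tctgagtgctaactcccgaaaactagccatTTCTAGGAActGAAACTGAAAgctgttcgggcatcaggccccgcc
Tgtp1 (chr11:48992284-48992364, - strand): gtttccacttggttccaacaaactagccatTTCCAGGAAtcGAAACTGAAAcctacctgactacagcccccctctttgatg
Apol9b (chr15:77729005-77729080, + strand): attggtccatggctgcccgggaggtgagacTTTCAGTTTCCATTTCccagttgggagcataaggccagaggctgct
Cxcl10 (chr5:92349063-92349132, - strand): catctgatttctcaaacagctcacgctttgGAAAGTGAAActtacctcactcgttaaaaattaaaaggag
B2m (chr2:122147518-122147587, + strand): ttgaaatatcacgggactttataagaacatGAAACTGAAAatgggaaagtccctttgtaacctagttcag
Irf1 (chr11:53769894-53769962, + strand): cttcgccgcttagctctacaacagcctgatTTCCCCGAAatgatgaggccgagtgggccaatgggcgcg
Icam1 (chr9:21015868-21015936, + strand): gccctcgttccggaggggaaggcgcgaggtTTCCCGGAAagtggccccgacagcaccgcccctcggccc
Casp12 (chr9:5345344-5345475, + strand): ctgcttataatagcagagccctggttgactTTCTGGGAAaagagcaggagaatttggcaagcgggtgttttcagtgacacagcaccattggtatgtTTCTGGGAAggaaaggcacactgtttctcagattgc
In the last 3 of these, Irf1, Icam1 and Casp12, the capitals mark gamma-activated sites, and in Gbp2, Gbp3, Irgm1, Apol9b, Cxcl10, and B2m response elements. A match is a description of the letters and not a measured site. No match was found for Cxcl9, Oasl2, Ubd, Phf11d, Xaf1, Tap1, or Il18bp, which says only that these letters were not in a window that was searched. Promoters were not found for every gene of the lists, and a gene without one gives no match either.

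Antiviral genes recognise or degrade viral nucleic acids or modify proteins in infected cells. Of 60 members tested, 31 were higher and 0 lower at an unadjusted p under 0.05, 40 lay above and 0 below without overlap, and 32 were higher with the block and the length trend removed. Their median log2 fold change was 1.78. Xaf1, a protein that promotes apoptosis, was at 1.14 and 1.42 RPKM alone against 17.4 and 19.9 RPKM in co-culture. Parp9, an ADP-ribosyltransferase family member of the interferon response, was at 4.903 and 3.43 RPKM alone against 40.9 and 23.7 RPKM in co-culture. Phf11d was at 0.223 and 0.248 RPKM alone against 12.9 and 7.01 RPKM in co-culture, and Apol9b at 0.203 and 0.484 RPKM alone against 12.4 and 7.56 RPKM in co-culture. The groups lay wide apart for these 4 genes, with log2 fold changes of 3.94 (SE 0.37), 3.02 (SE 0.39), 5.44 (SE 0.5), and 4.9 (SE 0.66). The members with the highest levels differed less. Ly6a (Sca-1), a surface protein of mouse stem and T cells, was at 459 and 685 RPKM alone against 1435 and 773 RPKM in co-culture with a log2 fold change of 0.99 (SE 0.46), and Ly6e at 698 and 785 RPKM alone against 990.2 and 480.2 RPKM in co-culture, where the groups overlapped.

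**Figure D3:**
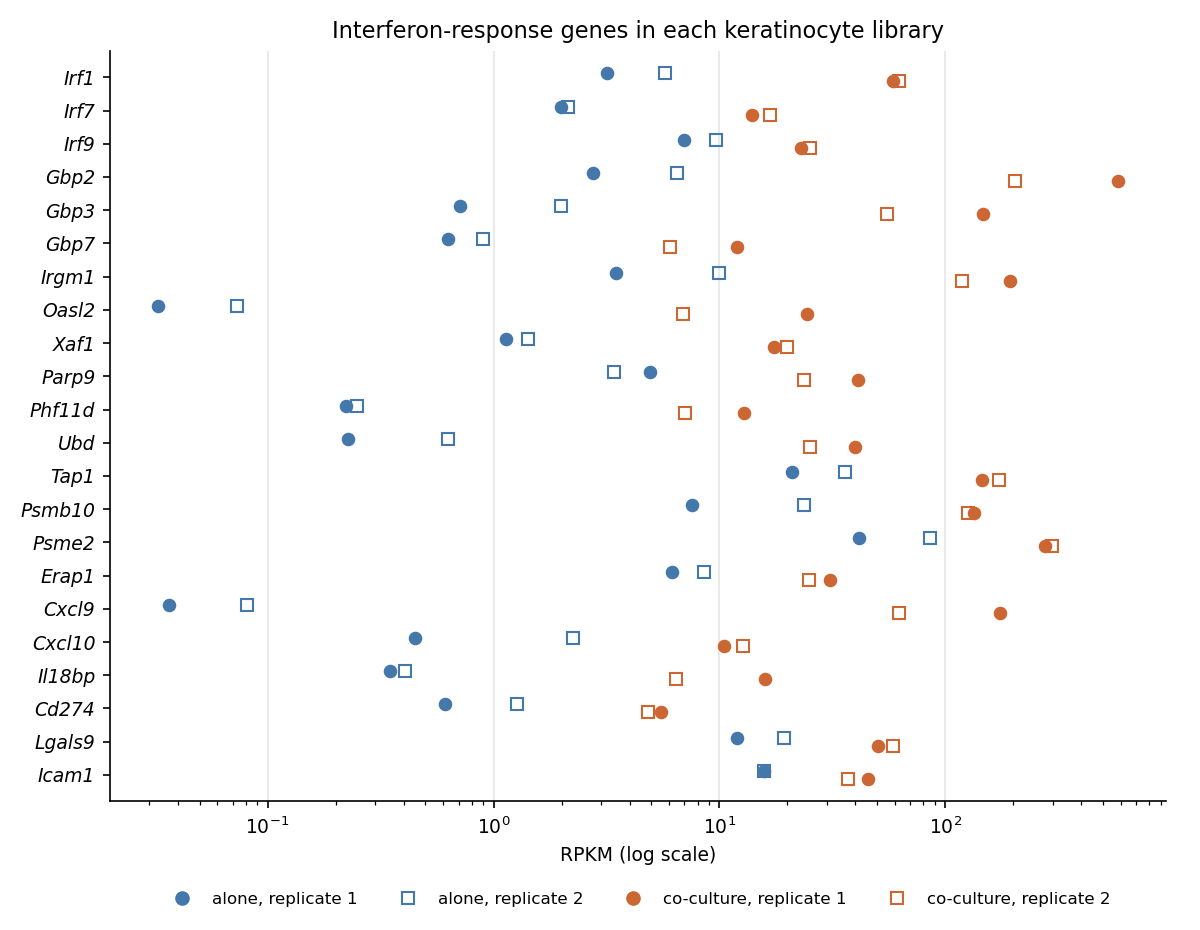
RPKM (horizontal axis, log scale) of 22 genes of the interferon response in the 4 keratinocyte libraries, blue for keratinocytes alone and orange for co-culture, filled circles for replicate 1 and open squares for replicate 2. For each of the genes both orange symbols lie to the right of both blue symbols, from Icam1 (45.6 and 37.2 against 15.8 and 15.7 RPKM) to Cxcl9 (175 and 62.5 against 0.0365 and 0.0813 RPKM).

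In the list of MHC class I and peptide loading, 13 of 25 members were higher at an unadjusted p under 0.05, from the proteasome to the peptide transporter. Psmb10, a catalytic subunit of the immunoproteasome, was at 7.59 and 23.7 RPKM alone against 134 and 126 RPKM in co-culture. Psme2, a part of the PA28 activator of the proteasome, was at 41.5 and 85.8 RPKM alone against 277 and 296 RPKM in co-culture, with 33.02% unique reads. Tap1, a subunit of the pump that carries peptides into the endoplasmic reticulum, was at 20.9 and 35.9 RPKM alone against 145 and 173 RPKM in co-culture, and Erap1, which trims them there, at 6.18 and 8.53 RPKM alone against 30.7 and 24.9 RPKM in co-culture. The groups did not overlap for these 4 genes, and the log2 fold changes were 3.11 (SE 0.64), 2.23 (SE 0.48), 2.56 (SE 0.44), and 1.98 (SE 0.33). H2-K1, a heavy chain of MHC class I, was at 239.8 and 519.7 RPKM alone against 671 and 965 RPKM in co-culture, and its light chain B2m at 331 and 936 RPKM alone against 1287 and 1483 RPKM in co-culture. Both were above the keratinocytes alone in both libraries, but the keratinocytes alone lay far apart from each other, and the log2 fold changes were 1.18 (SE 0.55) and 1.19 (SE 0.6). For B2m 22.96% of the reads were unique. No member was lower at an unadjusted p under 0.05, 18 were above and 1 below without overlap, and 9 were higher with the block and the length trend removed. The median was 1.33.

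Constitutive subunits of the proteasome were also above the keratinocytes alone, by less. All 14 had a positive log2 fold change, from 0.56 to 1.27 with a median of 0.87, 13 lay above without overlap, and 5 had an unadjusted p under 0.05 (Psma1, Psma2, Psma4, Psma5, and Psma7). Psma5 was at 50.2 and 66.6 RPKM alone against 117 and 149.9 RPKM in co-culture, and Psma7 at 129 and 129 RPKM alone against 231 and 243 RPKM in co-culture. These are short genes with a median of 1154 bases of exons, a length at which the median of all genes was also positive. With the block and the length trend removed the median of the list was 0.56 and 0 members passed an adjusted p of 0.05. MHC class II genes, which keratinocytes express only upon strong stimulation, overlapped between the groups. Cd74, the invariant chain, was at 5.604 and 19.4 RPKM alone against 8.17 and 33.4 RPKM in co-culture, and H2-Ab1 at 2.697 and 10.3 RPKM alone against 4.62 and 19.7 RPKM in co-culture. In both groups replicate 2 was the higher one, as it was for the T-cell and myeloid markers, whose part in it was not tested. None of the 8 members tested lay above or below without overlap.

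Among 20 chemokines tested, 5 were higher and 0 lower at an unadjusted p under 0.05, 7 were above and 2 below without overlap, 4 were higher with the block and the length trend removed, and the median was 0.92. The 5 were Cxcl9 and Cxcl10, which bind the receptor CXCR3 of activated T cells, the membrane-anchored Cx3cl1 and Cxcl16, and Ppbp. All but Cxcl16 were also higher with the block and the length trend removed. Cx3cl1 (fractalkine) was at 0.0991 and 0.237 RPKM alone against 0.743 and 2.09 RPKM in co-culture, and Cxcl16, the ligand of CXCR6 on T cells that stay in tissues, at 54.4 and 47.8 RPKM alone against 94.4 and 81.5 RPKM in co-culture. Cxcl16 lay at a high level already in keratinocytes alone, and its log2 fold change was 0.85 (SE 0.28). Ppbp, a neutrophil chemokine, was at 27.6 and 15.6 RPKM alone against 122 and 32.9 RPKM in co-culture, where replicate 1 of the co-culture stood apart. For other chemokines the replicates of a group were often far apart. Cxcl1 was at 24.9 and 4.31 RPKM alone against 18.02 and 8.97 RPKM in co-culture, and Cxcl5 at 3.55 and 0.447 RPKM alone against 4.09 and 0.423 RPKM in co-culture. Ccl20, the ligand of CCR6, was at 2.299 and 0.207 RPKM alone against 2.13 and 0 RPKM in co-culture, and Ccl2 at 0.907 and 0 RPKM alone against 1.05 and 1.86 RPKM in co-culture with 7.69% unique reads. Cxcl1, Cxcl5, and Ccl20 were higher in replicate 1 of both groups. Ccl5, a chemokine of T cells, was at 35.1 and 145 RPKM alone against 53.5 and 287 RPKM in co-culture, Ccl4 at 3.19 and 17.6 RPKM alone against 5.18 and 33.4 RPKM in co-culture, and Ccl3 at 0.757 and 10.2 RPKM alone against 3.18 and 10.9 RPKM in co-culture. These were higher in replicate 2 of both groups, as were the T-cell markers, and the groups overlapped.

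Genes of cell death differed in both directions. Casp12, an inflammatory caspase, was at 1.17 and 2.16 RPKM alone against 10.02 and 13.5 RPKM in co-culture. Casp1, which activates IL-1β and IL-18, was at 5.74 and 13.4 RPKM alone against 21.1 and 29.1 RPKM in co-culture. Bak1, which permeabilises mitochondria, was at 53.9 and 34.5 RPKM alone against 131 and 85.3 RPKM in co-culture, though with 17.4% unique reads, and Gsdmd, the pore of pyroptosis, at 1.98 and 6.35 RPKM alone against 8.61 and 9.31 RPKM in co-culture. For these 4 genes both co-cultured libraries were above, with log2 fold changes of 2.89 (Casp12), 1.46 (Casp1), 1.36 (Bak1), and 1.16 (Gsdmd). Gsdma, the gasdermin of differentiated keratinocytes, was at 35.2 and 36.5 RPKM alone against 6.81 and 0.667 RPKM in co-culture instead, and Mcl1, which protects from apoptosis, at 107 and 55.98 RPKM alone against 84.1 and 57.9 RPKM in co-culture, with overlap. Of 26 members tested, 6 were higher and 2 lower at an unadjusted p under 0.05 (Gsdma and Il18), 3 were higher, Casp12 and Bak1 among them, and the same 2 lower with the block and the length trend removed, and the median was 0.44. Il18, the cytokine that drives interferon-γ secretion by T cells, was one of the lower ones, at 28.2 and 59.2 RPKM alone against 8.49 and 12.7 RPKM in co-culture. Il18bp, its soluble inhibitor, was at 0.348 and 0.408 RPKM alone against 15.9 and 6.41 RPKM in co-culture. The cytokine was lower and its inhibitor higher, with log2 fold changes of -1.97 (SE 0.53) and 4.92 (SE 0.59), and adjusted p of 0.00352 and 0.00029 in edgeR with the block and the length trend removed.

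In the list of T-cell ligands and brakes, 7 of 22 members tested were higher as well at an unadjusted p under 0.05. Besides ligands by which keratinocytes hold or restrain T cells, it holds inhibitors such as Il18bp and Serpinb9, an enzyme (Ido1), and receptors such as Il15ra. Icam1, the ligand of the integrin LFA-1, was at 15.8 and 15.7 RPKM alone against 45.6 and 37.2 RPKM in co-culture. Lgals9, a ligand of the receptor TIM-3, was at 11.95 and 19.3 RPKM alone against 50.5 and 58.4 RPKM in co-culture, and Cd274 (PD-L1) at 0.611 and 1.26 RPKM alone against 5.504 and 4.84 RPKM in co-culture. The groups did not overlap for these 3 genes, whose log2 fold changes were 1.46 (SE 0.27), 1.87 (SE 0.39), and 2.52 (SE 0.52). H60c, a skin ligand of the activating receptor NKG2D, was at 199 and 153 RPKM alone against 234 and 185 RPKM in co-culture, with overlap between the groups, and Serpinb6a, an inhibitor of proteases, at 58.1 and 81.4 RPKM alone against 82.02 and 107 RPKM in co-culture. No member was lower at an unadjusted p under 0.05, 10 were above and 2 below without overlap (Vtcn1 and Ulbp1), and 5 were higher with the block and the length trend removed (Icam1, Lgals9, Cd274, Il18bp, and Serpinb9). The median was 0.91.

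Many genes of late epidermal differentiation were lower in co-culture, in the opposite direction to the interferon response. Of 47 members of the cornified envelope list that were tested, 0 were higher and 25 lower at an unadjusted p under 0.05. Without overlap, 1 was above (Sprr2k) and 34 were below, and 24 were lower with the block and the length trend removed. The median log2 fold change was -2.12. Ivl (involucrin, ENSMUSG00000049128, chr3:92570902-92573735 in GRCm38), the scaffold of the envelope, was at 15.4 and 21.1 RPKM alone against 1.51 and 0.505 RPKM in co-culture. Tgm5, a transglutaminase that cross-links it, was at 11.3 and 12.9 RPKM alone against 2.72 and 1.44 RPKM in co-culture, and Tchh (trichohyalin) at 7.01 and 6.71 RPKM alone against 0.802 and 0.281 RPKM in co-culture. Calm4, a calmodulin-like protein of the upper epidermis, was at 63.4 and 62.95 RPKM alone against 9.54 and 8.33 RPKM in co-culture. Sprr1a, the most abundant member, was at 2910.3 and 2194 RPKM alone against 685 and 78.5 RPKM in co-culture, and Dmkn (dermokine) at 1120.2 and 1141 RPKM alone against 443 and 102 RPKM in co-culture. In each of the 6 genes no co-cultured library came near those of keratinocytes alone. For Sprr1a and Dmkn replicate 2 of the co-culture was far below replicate 1, and the log2 fold changes were -2.72 (SE 1.01) and -2.02 (SE 0.73), while those of Ivl, Tgm5, and Calm4 were -4.15 (SE 0.62), -2.49 (SE 0.42), and -2.75 (SE 0.3). Krtdap was at 54.5 and 329 RPKM alone against 10.4 and 14.4 RPKM in co-culture. The late envelope gene Lce3c was at 28.6 and 22.8 RPKM alone against 3.71 and 0.962 RPKM in co-culture, and Lce3f at 20.5 and 6.25 RPKM alone against 0.323 and 0.298 RPKM in co-culture. Calm4 and Sprr1a were also present in the libraries of co-cultured T cells, with values given below. Calm4 was higher there than in the co-cultured keratinocytes. A loss of differentiated cells with the T cells and less RNA per cell cannot be told apart here, and neither was tested.

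The largest negative fold changes by the rule were those of Gm94, Akr1c18, Lce3f, Rptn, Klk6, Klk5, Ivl, 2310046K23Rik, Krtdap, Dsc1, Tchh, Lce3c, Crnn, Gsdma, and Defb4. Most of these belong to the layers above the basal one. Rptn (repetin), a protein of the S100 fused type, was at 6.099 and 12.3 RPKM alone against 0.619 and 0 RPKM in co-culture, and Crnn (cornulin), of the same type, at 5.45 and 14.2 RPKM alone against 1.38 and 0.585 RPKM in co-culture. Defb4, a β-defensin, was at 6.15 and 5.82 RPKM alone against 0.2898 and 0.935 RPKM in co-culture. Akr1c18, which inactivates progesterone, was at 6.98 and 15.6 RPKM alone against 0.382 and 0 RPKM in co-culture, and Gm94 at 1.97 and 9.89 RPKM alone and listed at 0 in both co-cultured libraries. Rptn and Akr1c18 had 0 reads in replicate 2 of the co-culture, and Gm94 in both replicates, so the size of these fold changes depends on the prior count of the fit.

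Of the suprabasal keratins and adhesion molecules, 9 of 25 members were lower at an unadjusted p under 0.05. Krt1, the first keratin of the layers above the basal one, was at 4.6995 and 7.105 RPKM alone against 0.509 and 0.8395 RPKM in co-culture. Of the desmosomal cadherins, Dsg1a was at 8.32 and 30.8 RPKM alone against 1.63 and 2.61 RPKM in co-culture, Dsc1 at 3.0001 and 8.56 RPKM alone against 0.779 and 0.0552 RPKM in co-culture, and Dsc2 at 206 and 156 RPKM alone against 73.7 and 36.1 RPKM in co-culture. Notch3, a receptor that promotes the exit from the basal layer, was at 17.1 and 20.4 RPKM alone against 6.29 and 3.37 RPKM in co-culture, a log2 fold change of -1.91 (SE 0.38). Jup (plakoglobin), which links these cadherins to keratins, was at 824 and 715 RPKM alone against 574 and 119 RPKM in co-culture, where replicate 2 of the co-culture stood apart. Its log2 fold change was -1.12 (SE 0.75), and -0.44 without that library. Cldn1, the claudin of epidermal tight junctions, overlapped between the groups (620.0 and 554 RPKM alone against 579.7 and 512 RPKM in co-culture). No member was higher at an unadjusted p under 0.05, 0 were above and 20 below without overlap, and 14 were lower with the block and the length trend removed. The median was -1.46.

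Some proteases that shed the cornified layer and enzymes of barrier lipids gave the same direction. Klk6 was at 15.9 and 33.3 RPKM alone against 0.913 and 1.402 RPKM in co-culture, and Klk7, which cleaves corneodesmosomes, at 54.02 and 68.7 RPKM alone against 10.2 and 13.98 RPKM in co-culture. Klk5, which activates Klk7, was at 2.52 and 9.01 RPKM alone against 0.394 and 0.181 RPKM in co-culture. Spink5 (LEKTI), the inhibitor of these kallikreins, was also lower, at 257 and 283 RPKM alone against 80.7 and 41.7 RPKM in co-culture. Sdr9c7, an enzyme of ceramide processing, was at 14.1 and 15.8 RPKM alone against 5.299 and 2.896 RPKM in co-culture. Their log2 fold changes were -4.33 (SE 0.61), -2.26 (SE 0.37), -4.27 (SE 0.97), -2.09 (SE 0.43), and -1.82 (SE 0.39), and the groups did not overlap. Klk10, the most abundant kallikrein, was at 343 and 202 RPKM alone against 195 and 48.4 RPKM in co-culture, where the nearest libraries of both groups were close to each other. Of 32 members tested, 0 were higher and 12 lower at an unadjusted p under 0.05, 1 was above (Asah1) and 23 were below without overlap, 10 were lower with the block and the length trend removed, and the median was -1.10.

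**Figure D4:**
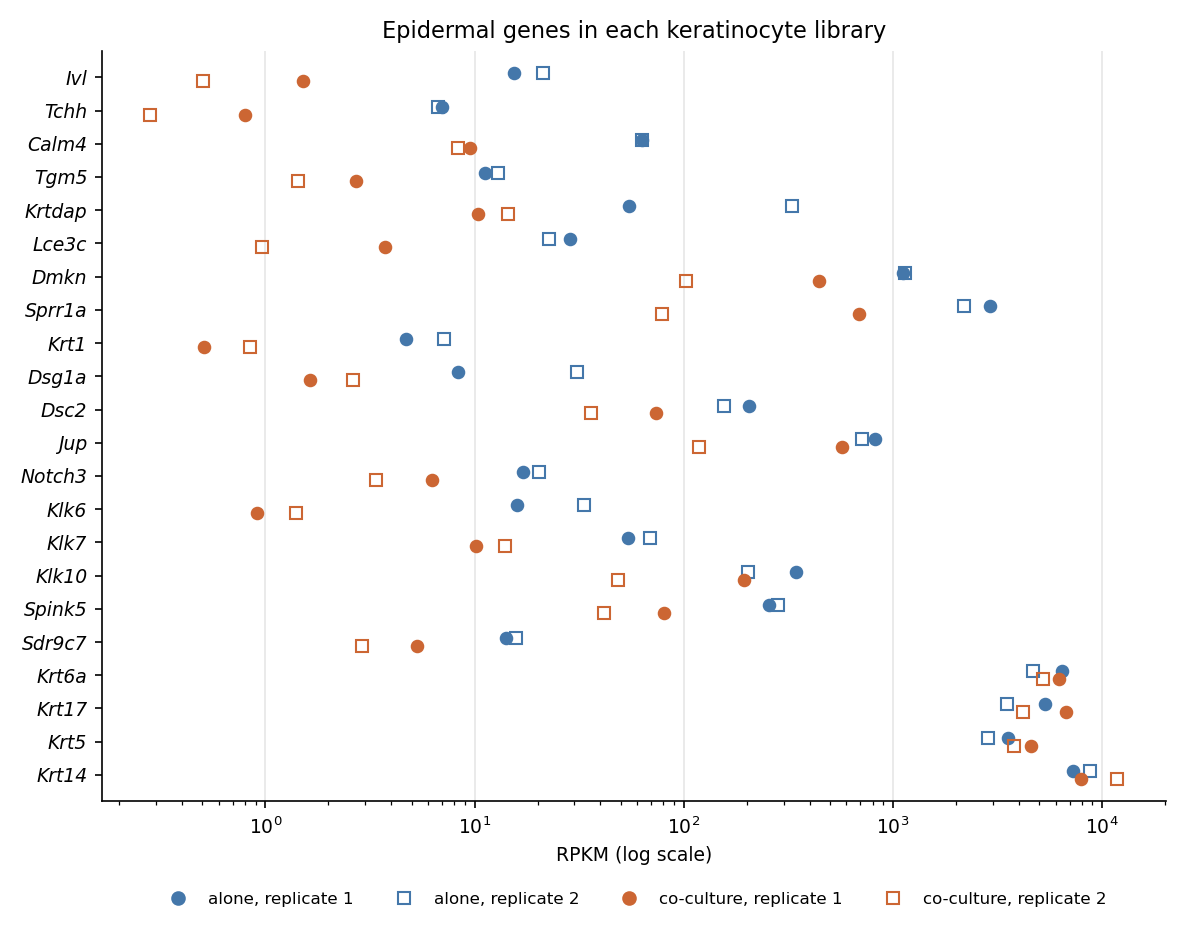
RPKM (horizontal axis, log scale) of 22 epidermal genes in the 4 keratinocyte libraries, blue for keratinocytes alone and orange for co-culture, filled circles for replicate 1 and open squares for replicate 2. From Ivl to Sdr9c7 both orange symbols lie to the left of both blue ones, for Krt5 to the right, and for Krt6a, Krt17, and Krt14 the groups overlap.

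Of the list of basal keratinocytes and basement membrane, 6 of 30 members were lower at an unadjusted p under 0.05. Krt5, the partner of Krt14, was at 3549.9 and 2837 RPKM alone against 4556 and 3812 RPKM in co-culture, and the log2 fold changes of both were 0.46 (SE 0.43) and 0.39 (SE 0.53). Of the basement membrane, Col4a2 was at 4.304 and 8.37 RPKM alone against 2.04 and 1.31 RPKM in co-culture, and Col7a1, the anchoring fibril, at 0.9796 and 5.51 RPKM alone against 0.213 and 0.3998 RPKM in co-culture. Plec (plectin), a plakin of hemidesmosomes, was at 14.6 and 15.9 RPKM alone against 3.53 and 1.68 RPKM in co-culture, and Dst, the other one, at 11.2 and 10.9 RPKM alone against 2.99 and 0.661 RPKM in co-culture. With 17666 and 34416 bases of exons these 2 genes are among the longest, and their log2 fold changes went from -2.5 (Plec) and -2.57 (Dst) in the plain fit to -1.06 and -0.67 with the block and the length trend removed. No member was higher at an unadjusted p under 0.05, 2 were above (Krt5 and Cd9) and 19 below without overlap, and 2 were lower with the block and the length trend removed (Col7a1 and Sox9). The median was -0.78.

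Wound keratins overlapped between the groups, with Krt6a as given above and Krt17 at 5327 and 3525 RPKM alone against 6729 and 4171 RPKM in co-culture. Single inflammatory genes lay apart. S100a9, a subunit of calprotectin, was at 23.1 and 47.3 RPKM alone against 7.18 and 7.897 RPKM in co-culture. Il1f9 (IL-36γ), a cytokine that recruits neutrophils, was at 16.8 and 23.5 RPKM alone against 8.06 and 4.08 RPKM in co-culture. Il24, a relative of IL-10 that acts on keratinocytes, was higher instead, at 3.69 and 3.69 RPKM alone against 12.5 and 15.4 RPKM in co-culture. The groups did not overlap for these 3 genes, with log2 fold changes of -2.16 (SE 0.53), -1.69 (SE 0.45), and 2.0 (SE 0.38). Of 40 members tested, 2 were higher (Il24 and S100a10) and 9 lower at an unadjusted p under 0.05, 1 was higher (Il24) and 9 were lower with the block and the length trend removed, and the median was -0.54.

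In the list of DNA replication and mitosis, 18 of 56 members were higher at an unadjusted p under 0.05, several helicase subunits among them. Of the replicative helicase, Mcm5 was at 11.6 and 9.31 RPKM alone against 27.4 and 23.9 RPKM in co-culture, Mcm7 at 17.1 and 11.3 RPKM alone against 42.6 and 32.5 RPKM in co-culture, and Mcm2 at 9.97 and 8.29 RPKM alone against 19.6 and 19.8 RPKM in co-culture. Tyms, which makes thymidylate, was at 3.29 and 2.77 RPKM alone against 7.17 and 9.15 RPKM in co-culture, and Pcna, the sliding clamp, at 52.2 and 60.004 RPKM alone against 102 and 126 RPKM in co-culture. The groups did not overlap in these 5 genes, and the log2 fold changes were 1.36 (SE 0.28), 1.47 (SE 0.33), 1.19 (SE 0.28), 1.51 (SE 0.35), and 1.1 (SE 0.32). Ccnd1, a cyclin of the G1 phase, was at 101 and 44.8 RPKM alone against 117 and 52.9 RPKM in co-culture and overlapped. At an unadjusted p under 0.05, 2 members were lower, while 31 were above and 3 below without overlap, 6 were higher and 1 was lower with the block and the length trend removed, and the median was 0.69. The 3 members below were Mki67, Cenpe, and Cenpf, of which Mki67, at 12.6 and 9.497 RPKM alone against 2.63 and 0.325 RPKM in co-culture, is the standard marker of dividing cells and has 10061 bases of exons. Targets of p53 had a median of 0.01 over 24 members, of which 1 was higher (Ccng1) and 1 lower (Trp53inp1) at an unadjusted p under 0.05. Cdkn1a (p21), the best known of them, was at 329 and 249 RPKM alone against 378 and 251 RPKM in co-culture.

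Metabolic genes lay closer to the median of all genes. None of 36 members of the cholesterol and fatty acid list and none of 30 members of the glycolysis list had an unadjusted p under 0.05, and their medians were -0.22 and 0.25. Ldha, the lactate dehydrogenase, was at 451 and 492 RPKM alone against 683 and 1329 RPKM in co-culture, where the co-cultured replicates were far apart from each other. Scd2, a desaturase of fatty acids, was at 476 and 358 RPKM alone against 328 and 147 RPKM in co-culture, and Acly, which provides acetyl-CoA, at 128 and 110.0 RPKM alone against 88.6 and 46.9 RPKM in co-culture. Of 19 genes of the extracellular matrix, 0 were higher and 3 lower at an unadjusted p under 0.05 (median -0.76), which were Col1a1, Fn1, and Tnc. Fn1 (fibronectin), with 8604 bases of exons, was at 3.25 and 4.06 RPKM alone against 1.54 and 0.528 RPKM in co-culture. With the block and the length trend removed, 0 members of these 3 lists passed an adjusted p of 0.05.

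The size of both responses varied between the replicate numbers. Within each number, the log2 ratio of (RPKM + 0.5) between co-culture and keratinocytes alone was taken for 107 tested genes of 3 interferon lists (GTPases, antiviral genes, MHC class I) and for 104 tested genes of 3 differentiation lists (cornified envelope, suprabasal keratins and adhesion, kallikreins and barrier lipids). Of the interferon genes, 91 were higher and 5 lower within both numbers, against 4231 and 4872 of all 12515 genes. The median ratio was 1.97 in replicate 1 and 1.01 in replicate 2, and 94 of the 107 genes had the higher ratio in replicate 1. Of the differentiation genes, 2 were higher and 89 lower within both numbers. Their median ratio was -0.95 in replicate 1 and -2.02 in replicate 2, and 88 of the 104 had the lower ratio in replicate 2. Among all genes the ratio was lower in replicate 2 for 7442, with medians of 0.00 and -0.10. The 21 T-cell markers were higher within both numbers, with medians of 0.35 and 0.81.

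**Figure D5:**
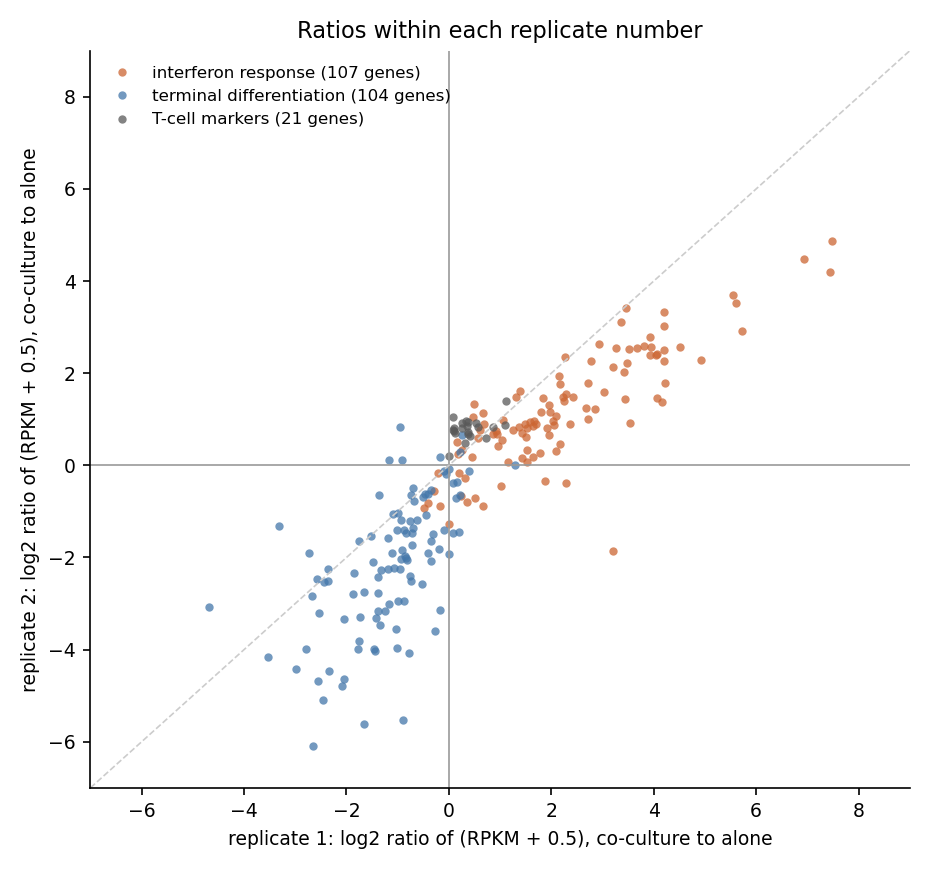
Log2 ratio of (RPKM + 0.5), co-culture to alone, within replicate 1 (horizontal axis) and within replicate 2 (vertical axis), 1 point for each gene, with the line of equal ratios dashed. Genes of the interferon response (orange) lie mostly in the upper right below the line, genes of terminal differentiation (blue) in the lower left below the line, and T-cell markers (grey) close to the origin.

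Reads on introns, which come in part from unspliced transcripts, were deposited in a separate column and separated the groups in some of the lists. Over the 24 genes of the GTPase list, 6.33 and 15.3 intron reads per 1000000 exon reads were counted in keratinocytes alone and 40.4 and 43 in co-culture. For the list of MHC class I and peptide loading these were 18.3 and 37.3 alone and 52.4 and 67.6 in co-culture. The suprabasal list had 106.9 and 61.8 alone against 23.1 and 24.2 in co-culture, and the cornified envelope list 70.5 and 48.4 against 25.2 and 20.0006. The groups did not overlap in these 4 lists and in that of antiviral genes (24.7 and 37.8 alone against 39.1 and 69.8 in co-culture), whereas intron reads over all tested genes, at 23975 and 25102 alone and 16873 and 27006 in co-culture, did. They overlapped as well in the lists of interferon signalling (15.4 and 17.3 alone against 9.65 and 20.9), of chemokines (4.94 and 3.46 against 5.03 and 2.97), and of T-cell ligands and brakes (17.04 and 26.8 against 19.6 and 44.0). T-cell markers (111 and 421 alone against 139 and 763) and B-cell markers (19.6 and 80.1 against 30.1 and 160) overlapped too. Both were higher in replicate 2 of each group. Separation was not particular to lists with changed exon reads. It was seen for cholesterol and fatty acid genes (127.1 and 91.0 alone against 62.7 and 44.2) and p53 targets (46.2 and 26.9 against 25.9 and 22.2). Intron reads also separated the groups in the kallikrein, basal, wound, DNA replication, and hair follicle lists. Of single genes, Gbp2 had 0 and 0 intron reads alone and 56 and 50 in co-culture, Cxcl9 had 0 and 0 alone and 33 and 21 in co-culture, and Tap1 had 4 and 5 alone and 20 and 20 in co-culture. These are small counts of the same libraries and were not tested.

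Whether the T cells of the co-culture changed in the same genes was tested with an interaction of cell type and co-culture over 8 libraries, those of the keratinocytes and 4 libraries of activated T cells that had spent 1 further day in keratinocyte medium or in co-culture. Of 13202 genes, 7 (0.053%) had a larger effect in keratinocytes at an adjusted p under 0.05 in edgeR, and 69 (0.523%) a smaller one. The 76 calls fell to 28 and 21 without either library of keratinocytes alone and to between 28 and 46 without 1 of the T-cell libraries. The 7 genes were Cxcl9, Ubd, Gbp3, Il18bp, Phf11d, Xaf1, and Irf1, all of the interferon response. In T cells Irf1 was at 58.04 and 52.3 RPKM in keratinocyte medium against 70.5 and 44.5 RPKM in co-culture, close to its level in co-cultured keratinocytes. Xaf1 was in T cells at 7.72 and 7.01 RPKM in keratinocyte medium against 8.19 and 4.47 RPKM in co-culture, and Gbp3 at 18.2 and 17.2 RPKM in keratinocyte medium against 18.1 and 10.6 RPKM in co-culture, so that with and without keratinocytes the values overlapped. The interaction was 3.73 (SE 0.54, adjusted p = 0.0364) for Irf1, 4.13 (SE 0.53, adjusted p = 0.0244) for Xaf1, and 6.5 (SE 0.88, adjusted p = 0.02898) for Gbp3 on the log2 scale. The other 69 genes had a positive log2 fold change in T cells, and 66 of them a mean under 1 RPKM in T cells in keratinocyte medium. Among them were keratinocyte genes such as Krt6a, which in T cells was at 0.256 and 0.356 RPKM in keratinocyte medium against 41.9 and 16.3 RPKM in co-culture, and Calm4, at 0 and 0 RPKM in keratinocyte medium against 146 and 183 RPKM in co-culture. Transcripts of keratinocytes in the T-cell libraries thus moved with this test, and their part in it was not tested.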

How the data were processed

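RNA was sequenced as single-end reads from 10 libraries, of which the 4 of keratinocytes form the comparison and 4 of T cells enter the interaction test. The authors mapped the reads to GRCm38 and counted them per gene with CLC Genomics Workbench, each library on its own, and deposited for 25814 genes the counts of exon reads, of uniquely mapped exon reads, and of intron reads. The authors also deposited RPKM values, exon reads divided by exon length and by mapped reads. For 3759 genes the deposited exon length was 0, so that no count could be made for them.

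Exon read counts of the 4 keratinocyte libraries were fitted by edgeR (version 4.0.16, R 4.3.3) with filterByExpr, TMM, the quasi-likelihood test, and no block, and p-values were adjusted by Benjamini-Hochberg over 12515 genes. Log2 fold changes are co-culture minus alone, with SE. Other settings were library sizes in place of TMM, limma (3.58.1) with 1 or 0.1 added to RPKM before taking log2, DESeq2 (1.42.0), other filters, unique reads, the replicate number as a block, a lowess offset that removes the length trend of each library, both together, all 10 libraries, and each library left out in turn. The interaction was fitted in the same way over 8 libraries. The fits were also run on simulated counts as a check of the code, and no result given here rests on them. Ratios within replicate numbers used a pseudocount of 0.5 RPKM.

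The deposited text mentions 2 parallel experiments and the titles carry the numbers 1 and 2, without saying that number and experiment are the same. Deviations from the group means of same-numbered libraries had a Pearson r of 0.56 across 12515 genes, which are not independent replicates.

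The members and the 26 gene lists were chosen with earlier results of these data known. Named were the 15 largest log2 fold changes in either direction among genes with no overlap between the groups, at least 5 RPKM on average in a group, and an unadjusted p under 0.05. From each list up to 4 members with the smallest p and up to 2 with the highest level were added, with the chemokines and keratinocyte genes that the study names and the markers of other cells. Other members of small counts and the genes Ppbp and Mki67 were chosen after their values were seen. Reads on near-identical genes cannot be assigned with certainty, and the share of unique reads is given where it is low. Promoters were taken from RefSeq. The values of 3 genes are not reported here. Figures were drawn with matplotlib 3.10.9.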

Additional observations from a re-analysis of the deposited data

Results flagged for a closer look

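For 26 named genes the effect of co-culture differed between keratinocytes and T cells at an adjusted p under 0.05 in edgeR's interaction test, which is what marked them for a closer look. The interaction is the log2 fold change in keratinocytes minus that in T cells. With 2 libraries a group, single libraries could not be screened as outliers.

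For 7 genes the effect was larger in keratinocytes. The interaction was 10.28 for Cxcl9, 7.53 for Ubd, 6.5 for Gbp3, 5.52 for Il18bp, 5.37 for Phf11d, 4.13 for Xaf1, and 3.73 for Irf1. The remaining 19 genes had a smaller effect in keratinocytes, and each is a gene that T cells in keratinocyte medium had at a low level. Of the cornified envelope, the interaction was -17.72 for Lce3f, -17.11 for Calm4, -15.98 for Lce3c, -14.87 for Sprr1a, and -12.09 for Dmkn. Among proteases, inhibitors and lipid enzymes it was -16.03 for Klk7, -15.91 for Klk6, -11.99 for Klk10, -11.63 for Spink5, and -8.96 for Sdr9c7. It was -16.19 for 2310046K23Rik, -14.44 for Gsdma, -11.37 for Il1f9, -9.05 for Me1, -7.78 for S100a9, -7.44 for H60c, -6.82 for Krt17, -6.44 for Krt6a, and -6.15 for Cldn1. In co-cultured T cells Sprr1a was at 429 and 306 RPKM and Krt17 at 98.3 and 64.2 RPKM. Genes with 0 reads in a group of T cells have an interaction whose size depends on the prior count of the fit.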

How the results depend on the processing

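At an adjusted p under 0.05, edgeR called 0 genes higher and 0 lower, as did limma with either pseudocount, library sizes in place of TMM, a minimum of 10 counts in every library, unique reads, and the length trend removed without a block. DESeq2 called 85 higher and 92 lower, a fit with no filter 11 higher, a fit of all 10 libraries 4 higher, and the replicate block 2 higher. With the replicate block and the length trend removed the counts were 204 higher and 311 lower. Leaving out 1 library gave 0 to 107 genes higher and 0 to 1057 lower, with both highest counts without replicate 1 of the co-culture, whose lone partner is then assumed to vary like the other group, and 21 higher and 0 lower without replicate 2 of the co-culture. Of 192 named genes tested, 61 gained a call with DESeq2 and 74 with the replicate block and the length trend removed. With no filter 11 gained one, with all libraries 4, and with the replicate block 2. Each fit was compared with the plain one, which called 0 genes, so a reversed call could not occur. Signs of small fold changes did change. Without replicate 2 of the co-culture, the log2 fold change of Ccl5 went from 1.01 to -0.78 and that of Ifngr1 from 0.35 to -0.49.

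Genes at 2.5 fold, the cutoff of the paper, with a mean of 5 or more RPKM in a group numbered 124 higher and 415 lower. They were 261 and 773 with a minimum of 1 RPKM, 247 lower with a minimum of 10 RPKM, and 1340 and 2469 with no minimum. With the replicate block, in the sense of 2.5 fold within both replicate numbers, they were 80 and 176. Leaving out 1 library gave 122 to 402 higher and 166 to 1294 lower. They were 400 and 638 without replicate 2 of the keratinocytes alone, 402 and 1294 without replicate 1 of the co-culture, 267 lower without replicate 1 of the keratinocytes alone, and 166 lower without replicate 2 of the co-culture. The interaction with cell type called 76 genes, against 351 with DESeq2, 205 with no filter, and 21 to 105 with 1 library left out (28 and 21 without replicates 1 and 2 of the keratinocytes alone, 28 and 30 without either T-cell library in keratinocyte medium, 39 and 46 without either co-cultured T-cell library). Named genes without 10 counts in every library or without unique reads, and the B-cell list at that minimum, gave no value there. The cause of these shifts was not tested. With 2 libraries a group, differences smaller than the spread between replicates were not detectable, and genes with few reads in one group have fold changes without a firm size.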

Other observations

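Of markers of γδ T cells, which include the resident T cells of murine epidermis, 3 of 9 were tested and 0 had an unadjusted p under 0.05. The summed level of the 9 was 4.52 and 14.05 RPKM in keratinocytes alone and 4.04 and 20.3 RPKM in co-culture, higher in replicate 2 of both groups. Tested were Klrk1, Cd7, and Fcer1g, and none of the receptor genes Trdc, Trdv4, Tcrg-C1, Tcrg-C2, and Tcrg-V5. Of the 9 markers, 5 had 0 exon reads in all 4 libraries, as had Trac, Trbc1, and Trbc2 of the T-cell list. Genes with a deposited exon length of 0 could not be counted, so the sum is no measure of γδ T cells. Of 11 hair follicle markers 3 were tested, and Krt79, a keratin of the follicle opening, was lower at an unadjusted p under 0.05, at 1.58 and 1.32 RPKM alone against 0.188 and 0.0578 RPKM in co-culture. Of the 21 T-cell markers tested, Gzmb (granzyme B), a protease of cytotoxic T cells, was the single one above in co-culture without overlap, at 0.5503 and 1.64 RPKM alone against 1.79 and 5.11 RPKM in co-culture.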
